A study of Homo sapiens with 6 samples.

Results

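Complex I, the NADH:ubiquinone oxidoreductase of the mitochondrial inner membrane, was followed through the transcripts of its nuclear subunits and of the factors that build it. Members were the gene symbols that begin with NDUF followed by A, B, C, S or V, each read from 1 probe set that names a single symbol. Where a symbol had several such sets, the set was chosen by its mean log2 signal on the 6 arrays together, the highest being kept. This gave 42 of the 18372 genes tested: 6 core subunits, 28 accessory subunits, 7 NDUFAF assembly factors and NDUFV1-DT, a divergent transcript next to NDUFV1 that encodes no subunit. The choice of probe set did not use the difference between groups. Of the other symbols of the family, NDUFC2 and NDUFS5 were read only by probe sets that carry several symbols, and NDUFAF8 was not analysed here. The subunits encoded by mitochondrial DNA were not analysed here either.

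The cells were A375, an established human melanoma line, harvested 72 h after transfection with a negative control siRNA (3 arrays) or with siFAH, an siRNA against FAH (3 arrays). FAH encodes fumarylacetoacetate hydrolase, the last enzyme of tyrosine breakdown, which releases fumarate and acetoacetate. RNA was hybridized to Affymetrix Human Gene 1.0 ST arrays, whose probes lie along the whole transcript, and each value is a log2 signal from RMA, a method that subtracts background, puts the arrays on 1 scale and merges the probes of a set into a single number. The model is limited to 1 cell line, 1 time point and a transient transfection, and an arm without any siRNA was not analysed here. The labels name 1 siFAH condition, and effects of the siRNA other than on FAH were not tested. The replicates were described as biological.

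Complex I passes electrons from NADH through a flavin and a chain of iron-sulfur clusters to ubiquinone and pumps protons across the inner membrane. It is shaped like an L. The peripheral arm in the matrix carries the electron chain, and the membrane arm holds the proton pumps. The core subunits do the catalysis, the accessory subunits surround and stabilize them, and the NDUFAF factors help to assemble the enzyme and leave it before it is complete.

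FAH itself had log2 signals of 5.48, 5.59 and 5.68 on the control arrays and 4.92, 4.60 and 4.92 on the siFAH arrays. It fell by 0.77 on the log2 scale (standard error, SE, 0.10; limma adjusted p = 0.00213), and the groups did not overlap. Arrays of 1 group correlated at 0.995 to 0.997 and arrays of different groups at 0.9881 to 0.9953 over all probe sets. As a check of the label, the mean signals of 8 melanocyte lineage genes on the control arrays were 8.56 for SOX10, 8.04 for CSPG4, 7.26 for S100B, 6.60 for MITF, 5.38 for S100A1, 3.88 for PMEL, 2.95 for TYR and 2.90 for MLANA, and these are not compared between probe sets. Of the 8, CSPG4, a melanoma surface proteoglycan, fell by 0.67 (adjusted p = 0.00144) and 7 were not called. The 10 markers of epithelium, leukocytes and endothelium had list medians from 3.93 to 4.03 over the 6 arrays. The highest of them on the control arrays was KRT14, with a mean of 5.38. By limma 0 of the 10 was called (1 at an unadjusted p under 0.05). Total signal of a bulk sample cannot tell fewer cells of a kind from less RNA per cell.

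Of the 41 subunits and assembly factors, 11 rose after FAH silencing, 1 fell and 29 did not pass the test. A gene was called where its p from limma, a linear model fitted to all genes together, was under 0.05 after Benjamini-Hochberg adjustment across the 18372 genes. By that rule 9.86% of all genes tested were called, 3.48% higher and 6.38% lower. The members called higher were 26.8% of 41, and those called lower 2.44%. The median log2 fold change (siFAH minus control) was 0.16 over the members and 0.0050 over all genes. The arrays of the groups did not overlap in 21 members that were higher and in 4 that were lower, against 13.4% and 18.6% of all genes (32.0% in either direction). At the limits named in the study's methods, at least 1.2-fold and p under 0.05, here with limma's unadjusted p, 13 members were higher and 2 lower, against 4.74% and 7.83% of all genes (12.6% in either direction). NDUFV1-DT had a dim mean signal of 3.56 in controls and a log2 fold change of -0.0089.

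**Figure D1:**
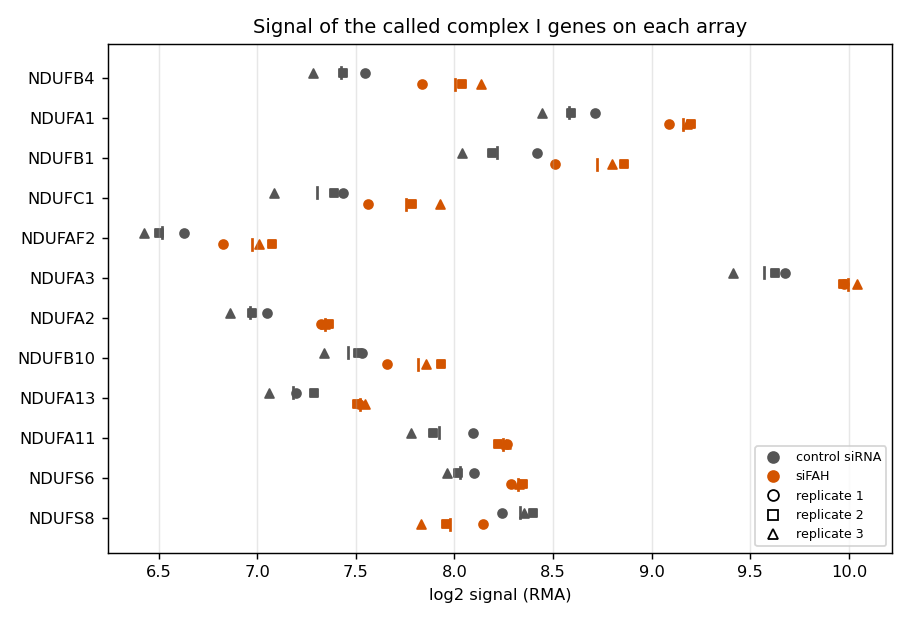
Log2 signal (x axis) of the 12 called complex I genes on each array. Gray symbols are the 3 control siRNA arrays and orange symbols the 3 siFAH arrays, the shape gives the replicate number, and the short vertical line is the group mean. In 11 genes all siFAH arrays lie above all control arrays, and in NDUFS8 all lie below.

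Most of the called members were accessory subunits. Of the 28 measured, 10 were called higher and 0 lower (median log2 fold change 0.21, 25 positive), against 3.48% and 6.38% of all genes. At an unadjusted p under 0.05 the counts were 18 and 0. All genes passed this limit at 10.8% as higher and 15.3% as lower (26.2% in either direction). Among the 6 core subunits 0 were called higher and NDUFS8 was called lower (median -0.022, 3 positive and 3 negative), with 1 higher and 2 lower at an unadjusted p under 0.05. The sign of the core median turned under quantile normalization (0.0429) and cyclic loess (0.0658). Among the 7 NDUFAF factors NDUFAF2 was called higher and 0 lower (median 0.0061), with 1 and 1 at an unadjusted p under 0.05. The sign of this median turned under quantile normalization (-0.0258), median centring (-0.0481), cyclic loess (-0.0219) and with dim genes left out (-0.0693). The difference between these roles was not tested. Members were chosen with earlier results of these data known, so the counts describe the members and are not a test of them.

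**Figure D2:**
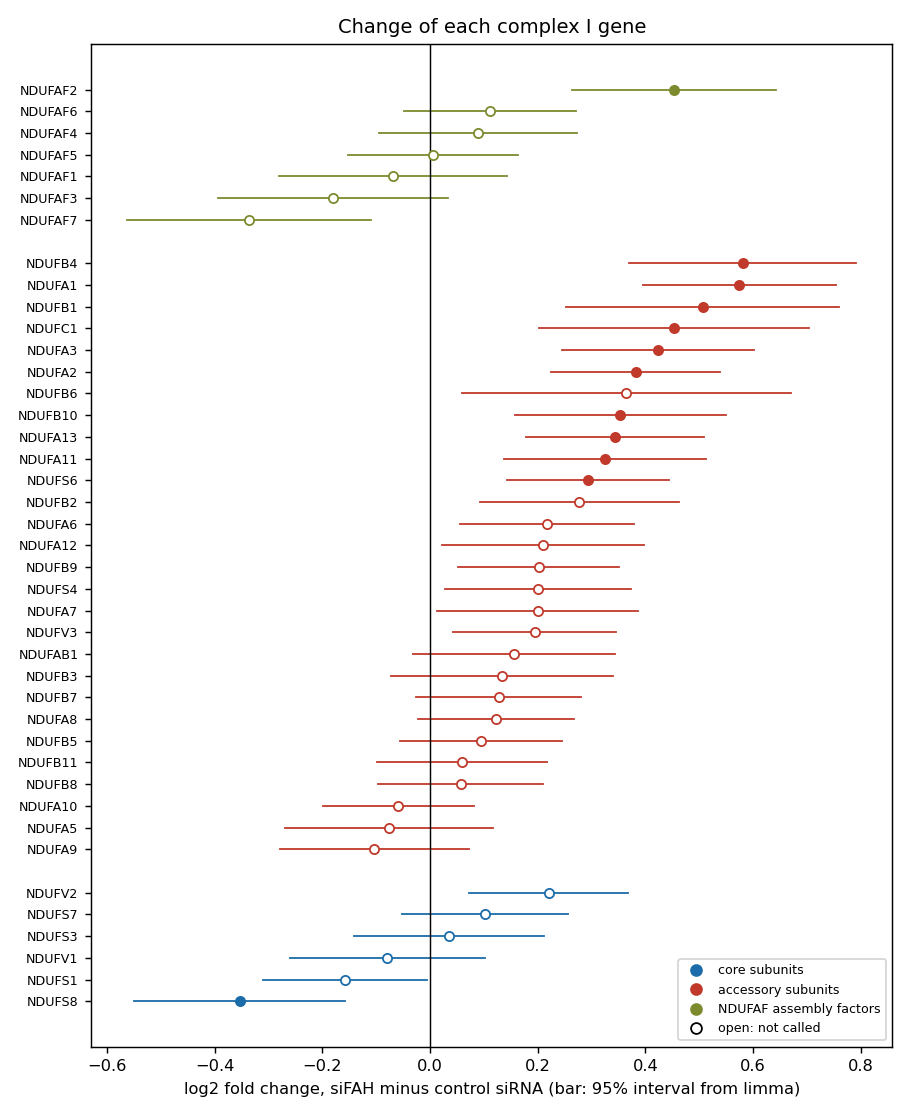
Log2 fold change, siFAH minus control siRNA (x axis), of each of the 41 subunits and factors, with its 95% confidence interval from limma. Colors mark core subunits, accessory subunits and NDUFAF factors, and filled points passed the test (11 higher, 1 lower). Of the 28 accessory subunits 25 lie to the right of 0.

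All 6 core subunits measured here belong to the peripheral arm. NDUFV1, which binds NADH and the flavin that takes its electrons, had 8.05, 8.15 and 8.23 on the control arrays and 8.11, 8.16 and 7.93 on the siFAH arrays. These groups overlapped (log2 fold change -0.08, SE 0.08, adjusted p = 0.581). NDUFV2, an iron-sulfur protein beside NDUFV1, had 8.96, 8.96 and 8.86 in controls and 9.10, 9.16 and 9.18 after siFAH. All its siFAH arrays were above all control arrays, and the difference of 0.22 (SE 0.07) did not pass the test (adjusted p = 0.0648). NDUFS1, the iron-sulfur protein that carries electrons onward from there, had 7.39, 7.49 and 7.55 in controls and 7.33, 7.32 and 7.30 after siFAH. The groups did not overlap, and the difference of -0.16 (SE 0.07) did not pass either (adjusted p = 0.176).

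NDUFS8, a subunit that holds iron-sulfur clusters on the way to ubiquinone, was the only core subunit called. Its log2 signals were 8.24, 8.40 and 8.35 on the control arrays and 8.14, 7.96 and 7.83 on the siFAH arrays. It fell by 0.35 on the log2 scale (SE 0.09; limma adjusted p = 0.0334), with siFAH replicate 1 the closest to the controls. This call was lost without control replicate 2 or 3 and without siFAH replicate 2 or 3, with a highest adjusted p of 0.122. NDUFS7, which holds the last cluster before ubiquinone, had 6.50, 6.57 and 6.44 in controls and 6.66, 6.61 and 6.54 after siFAH. NDUFS3, a neighbor of the ubiquinone site without a cluster of its own, had 7.64, 7.58 and 7.40 and then 7.56, 7.53 and 7.64. Both pairs of groups overlapped, with log2 fold changes of 0.10 (adjusted p = 0.391) and 0.04 (adjusted p = 0.819).

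Of the 9 accessory subunits of the peripheral arm, NDUFA2 and NDUFS6 rose and 7 did not pass the test, with a median log2 fold change of 0.20. The share of all genes called higher was 3.48%. NDUFA2, a thioredoxin-fold subunit beside NDUFS1, had 7.05, 6.97 and 6.86 in controls and 7.32, 7.37 and 7.34 after siFAH (0.38, SE 0.07, adjusted p = 0.0106). NDUFS6, a zinc-binding subunit needed late in assembly, had 8.10, 8.02 and 7.96 in controls and 8.29, 8.35 and 8.33 after siFAH (0.29, SE 0.07, adjusted p = 0.0250). In both genes the siFAH arrays lay close together, with SDs of 0.02 and 0.03 (n = 3). NDUFA9, a nucleotide-binding subunit at the junction of the arms, had a log2 fold change of -0.10 (SE 0.08, adjusted p = 0.448). NDUFA5, a small matrix-side subunit, had -0.08 (SE 0.09, adjusted p = 0.624). The groups of NDUFA9 and NDUFA5 overlapped.

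Of the 18 accessory subunits of the membrane arm, 8 rose and 0 fell, against 3.48% called higher and 6.38% lower of all genes. In 17 the log2 fold change was positive. The arrays did not overlap in 12 that were higher and in NDUFA10, which was lower. Over all genes the shares without overlap were 13.4% higher and 18.6% lower. In the proximal part, next to the peripheral arm, 5 of 7 rose (median 0.34). NDUFA1, a small single-pass membrane subunit encoded on the X chromosome and needed for assembly, had 8.71, 8.59 and 8.44 on the control arrays and 9.09, 9.20 and 9.18 on the siFAH arrays. It rose by 0.57 on the log2 scale (SE 0.08; limma adjusted p = 0.00317), and the lowest siFAH array was above the highest control array. NDUFA3, another small membrane subunit, had 9.68, 9.62 and 9.41 in controls and 9.98, 9.97 and 10.04 after siFAH (0.42, SE 0.08, adjusted p = 0.0117). NDUFA13, also known as GRIM-19, had 7.20, 7.29 and 7.06 and then 7.52, 7.51 and 7.55 (0.34, SE 0.07, adjusted p = 0.0197).

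In these 3 genes control replicate 3 was the lowest control, and the siFAH arrays differed little from each other. NDUFC1, a small subunit of the same region, had 7.44, 7.39 and 7.08 in controls and 7.56, 7.78 and 7.93 after siFAH (0.45, SE 0.11, adjusted p = 0.0332). NDUFA11, which sits at the contact with complex III in supercomplexes, had 8.10, 7.89 and 7.78 and then 8.27, 8.22 and 8.26 (0.33, SE 0.08, adjusted p = 0.0383). NDUFA10, a subunit related to nucleoside kinases, had a log2 fold change of -0.06 (SE 0.06, adjusted p = 0.602). All its siFAH arrays were below all control arrays.

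In the distal part of the membrane arm 3 of 11 rose, against 3.48% of all genes, and all 11 log2 fold changes were positive (median 0.20). NDUFB4 had the largest log2 fold change of all 41 members. Its log2 signals were 7.55, 7.44 and 7.29 on the control arrays and 7.83, 8.04 and 8.14 on the siFAH arrays, a rise of 0.58 (SE 0.10; adjusted p = 0.00593). NDUFB1, a small single-pass subunit, had 8.42, 8.19 and 8.04 in controls and 8.51, 8.86 and 8.80 after siFAH (0.51, SE 0.11, adjusted p = 0.0227). NDUFB10, which carries disulfide-bonded cysteines and faces the intermembrane space, had 7.53, 7.51 and 7.34 and then 7.66, 7.93 and 7.85 (0.35, SE 0.09, adjusted p = 0.0332). In NDUFB4, NDUFB1 and NDUFB10 siFAH replicate 1 was the array nearest to the controls. NDUFB8, a subunit often used as an antibody marker of assembled complex I, had a log2 fold change of 0.06 (SE 0.07, adjusted p = 0.650) and overlapping groups.

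The other 14 accessory subunits had positive log2 fold changes from 0.060 to 0.36, with adjusted p from 0.0626 to 0.642. In 9 of them all siFAH arrays were above all control arrays, an order that 13.4% of all genes had. The 2 probe sets with several symbols that include a subunit were not members. The set that names NDUFC2 together with NDUFC2-KCTD14 had 9.29, 9.31 and 9.23 in controls and 9.36, 9.44 and 9.47 after siFAH. The set that names NDUFS5 also names RPL10, a ribosomal protein gene, and its signal cannot be assigned to 1 of them.

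Among the assembly factors NDUFAF2, a late assembly factor and paralog of the subunit NDUFA12, had 6.63, 6.50 and 6.42 on the control arrays and 6.83, 7.08 and 7.01 on the siFAH arrays. It rose by 0.45 on the log2 scale (SE 0.09; limma adjusted p = 0.0116), without overlap. NDUFAF7, an arginine methyltransferase needed early in assembly, had 6.98, 7.05 and 7.32 in controls and 6.86, 6.87 and 6.62 after siFAH, with no overlap and a log2 fold change of -0.34 (SE 0.10) that did not pass (adjusted p = 0.0649). It passed, among other settings, with each array centred on its median (adjusted p = 0.043) and without control replicate 1 (adjusted p = 0.0449). NDUFAF3 and NDUFAF4, which act together on the part around the ubiquinone site, had -0.18 (SE 0.10, adjusted p = 0.266) and 0.09 (SE 0.08, adjusted p = 0.532). The same quantity was -0.07 for NDUFAF1, a membrane arm factor, 0.01 for NDUFAF5, which hydroxylates an arginine of NDUFS7, and 0.11 for NDUFAF6, an early factor. The groups overlapped in these 5 genes.

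The kept probe sets of NDUFAF2 and NDUFV2 stand, in the numbering of the array, among probe sets of other chromosomes. The NDUFAF2 set has neighbors on chromosome 2 whereas the gene lies on chromosome 5, and the NDUFV2 set has neighbors on chromosome 19 whereas the gene lies on chromosome 18. Of 19260 probe sets with 1 symbol and a chromosome, 98.8% lie on the chromosome of their neighbors, so what these 2 sets read is uncertain. Each gene had a second probe set among its own chromosome's sets. The second set of NDUFAF2 gave 0.44 (adjusted p = 0.0189 in a fit of all probe sets with 1 symbol), and that of NDUFV2 gave 0.21 (adjusted p = 0.0869). NDUFB4 had 2 probe sets with identical values, which count as 1 measurement. NDUFS4, an accessory subunit with 0.20 in its kept set, had a dimmer second set (mean 3.76 in controls). That set gave 0.0091 (adjusted p = 0.966 in the same limma fit of all probe sets with 1 symbol).

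The mean of the 28 accessory subunits, with each gene taken relative to its control mean, was 0.07, 0.0076 and -0.07 on control arrays 1, 2 and 3. On siFAH arrays 1, 2 and 3 it was 0.17, 0.27 and 0.27. Every siFAH array was therefore above every control array in this mean. For the proximal membrane arm the siFAH values were 0.27, 0.31 and 0.35, for the distal membrane arm 0.16, 0.30 and 0.30, and for the peripheral arm 0.07, 0.11 and 0.08. The 15 peripheral arm genes include the 6 core subunits, whereas the membrane arm sets hold accessory subunits only. The 9 accessory subunits of the peripheral arm had a median log2 fold change of 0.201, beside 0.202 for the distal membrane arm. The core mean was -0.0026, -0.03 and -0.08 on the siFAH arrays, inside the control range on 1 of them and below the lowest control array on the others. The NDUFAF means overlapped between groups. The 4593 genes of highest signal, among which 35 of the 41 members lie, had means from -0.10 to -0.06 on the siFAH arrays.

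**Figure D3:**
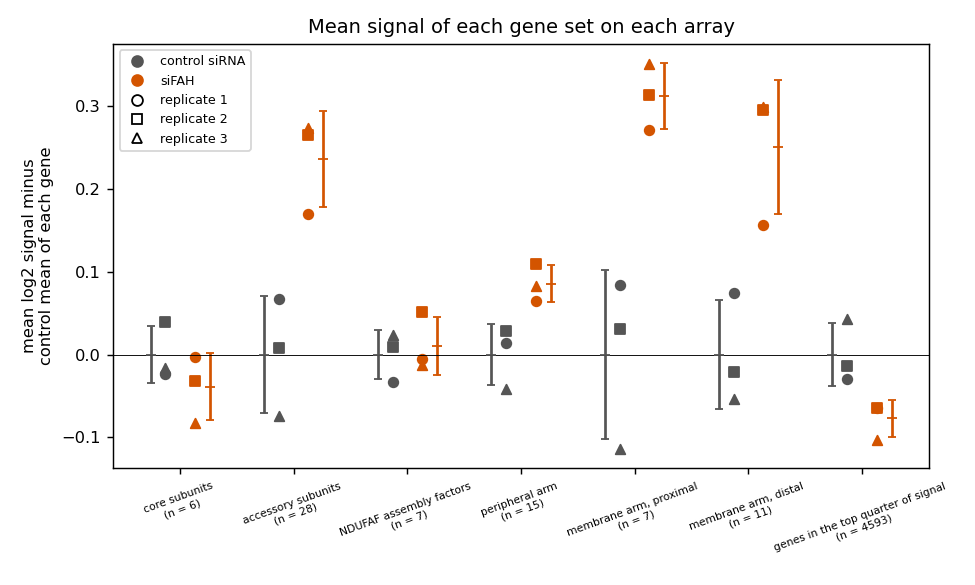
Mean log2 signal of each gene set on each array, relative to the control mean of each gene (y axis). Symbols are arrays, and the bars beside them are the group mean ± SD (n = 3). The accessory, membrane arm and peripheral arm sets lie above all controls on all 3 siFAH arrays, and the 4593 genes of highest signal lie below. The peripheral arm set includes the 6 core subunits.

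The arrays did not contribute evenly. Among the 11 genes called higher, control replicate 3 was the lowest control in 11 and control replicate 1 the highest in 10. Over all 41 members control replicate 3 was the lowest control in 26 and siFAH replicate 1 the lowest siFAH array in 22. Leaving out control replicate 3 left 5 members called higher, as did leaving out siFAH replicate 2 or siFAH replicate 3, and leaving out control replicate 2 left 6. Over all genes the count called higher fell from 639 to 289, 271, 267 and 267 in these fits, in the same order. Without control replicate 1 there were 12 members called higher, beside 653 of all genes. Without siFAH replicate 1 there were 11, beside 573 of all genes. NDUFB4, NDUFA1, NDUFA3, NDUFA2 and NDUFAF2 passed in all 6 of these fits, with log2 fold changes from 0.33 to 0.67. The other 7 called members lost their call in at least 1 fit, with highest adjusted p from 0.0717 for NDUFA13 to 0.122 for NDUFS8. The median of the accessory subunits was 0.20 without control replicate 3 and 0.25 without siFAH replicate 1.

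Signal strength moved with the comparison. Over all genes, the median log2 fold change was 0.05 in the 1838 dimmest and -0.11 in the 1838 brightest. The 4593 genes of highest signal had a median of -0.09, with 286 called higher and 691 lower. The accessory subunits thus stood on the positive side of a signal range whose median was negative, and the core subunits near its middle. With each array centred on its median, 80.1% of all calls were lower, against 64.7% in the deposited values, and 11 members were called higher.

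**Figure D4:**
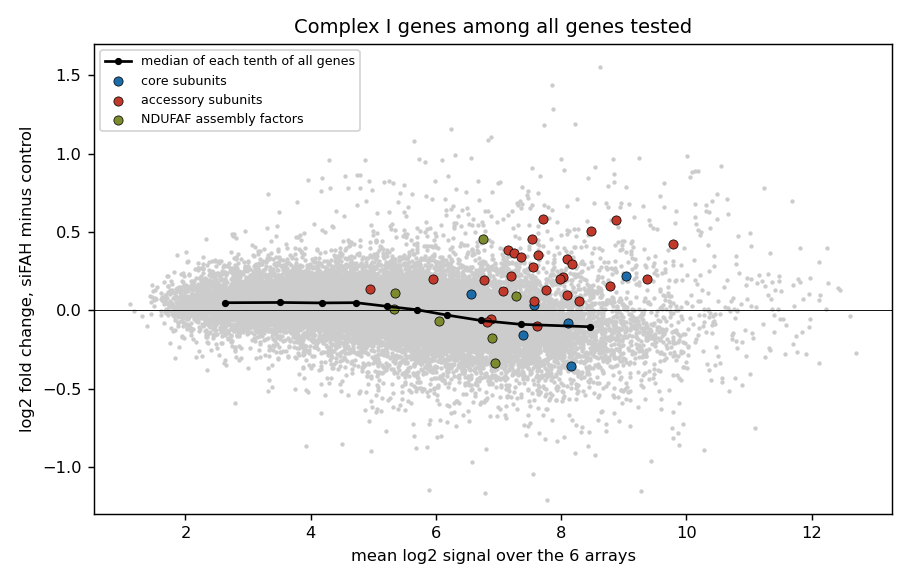
Log2 fold change (y axis) against the mean log2 signal over the 6 arrays (x axis), with all 18372 genes in gray and the 41 subunits and factors in color. The black line joins the medians of 10 bins of all genes by signal, from 0.05 at the dim end to -0.11 at the bright end, and most accessory subunits lie above it.

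Gene length moved with it too. The members' genes span a median of 12635 bases in the RefSeq annotation of GRCh38.p14. Of the 21 members up to that span 9 were called higher and 1 lower (median 0.22), and of the 20 longer ones 2 were called higher and 0 lower (median 0.13). Among the protein-coding genes of the 4593 with the highest signal, those up to the same span had a median of -0.02 (103 higher and 129 lower of 1121) and longer ones -0.12 (96 higher and 551 lower of 3311). The part of length or signal in the members' changes was not tested.

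Promoter letters of the members were read from RefSeq (GRCh38.p14), 250 bases before to 50 after each gene's start, for the 38 members with an entry. The motifs searched were the NRF1 motif, a palindrome shown in capitals in the NDUFB4 stretch, the ETS motif CCGGAAG or CTTCCGG on the other strand, and the YY1 motif AAGATGGC or GCCATCTT. NRF1, the ETS factor GABP and YY1 are known as regulators of respiratory genes. The NRF1 motif was in 3 of 38 members (7.89%) and in 1.52% of all genes with a promoter. The ETS motif was in 6 (15.8%, against 12.2%) and the YY1 motif in 7 (18.4%, against 3.52%). The motifs were chosen after these counts were seen, so the shares are not a test. The comparison set of 27305 genes was not limited to protein-coding genes or to the genes tested, whereas the members are all protein-coding. Stretches upstream of the start are shown for NDUFB4 and NDUFA1, the members with the largest rises, for NDUFA13, also called higher, and for NDUFS1 and NDUFAF4, which were not called. Each runs 5′ to 3′ on the strand of its gene, and capitals mark the motif.
NDUFB4 (NRF1 motif, chr3:120596152-120596211, plus strand): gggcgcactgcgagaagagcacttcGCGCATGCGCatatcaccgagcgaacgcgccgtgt
NDUFA1 (ETS motif, chrX:119871760-119871816, plus strand): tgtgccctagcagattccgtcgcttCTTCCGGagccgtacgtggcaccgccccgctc
NDUFA13 (ETS motif, chr19:19516190-19516224, plus strand): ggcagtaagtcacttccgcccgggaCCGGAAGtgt
NDUFS1 (ETS motif, chr2:206159570-206159626, minus strand): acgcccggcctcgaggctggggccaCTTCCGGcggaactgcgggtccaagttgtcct
NDUFAF4 (ETS motif, chr6:96898007-96898063, minus strand): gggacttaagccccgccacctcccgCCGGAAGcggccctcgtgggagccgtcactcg
The ETS letters thus stood in front of members that rose and of members that were not called. Of the members with each motif, 1 of 3 with NRF1, 2 of 6 with ETS and 1 of 7 with YY1 were called higher. A match is a description of letters and does not show binding.

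Of the 13 assembly factors of complex I without an NDUFAF name, 3 fell and 0 rose (median -0.15), with 6 and 0 at an unadjusted p under 0.05. The shares of all genes were 6.38% lower and 3.48% higher by the call, and 15.3% and 10.8% at the unadjusted limit. Of the 4593 genes of highest signal, among which 7 of these 13 lie, 15.0% were called lower (median -0.09). Without control replicate 3 the median of the 13 was -0.0807. COA1, which takes part in assembling complexes I and IV, had mean log2 signals of 9.21 ± 0.06 in controls and 8.70 ± 0.04 after siFAH (SD, n = 3) and fell by 0.51 (adjusted p = 0.00251). TIMMDC1, a membrane arm assembly factor, fell by 0.50 (adjusted p = 0.0264), and FOXRED1, which helps to assemble the enzyme, fell by 0.39 (adjusted p = 0.0442). Complex II had 0 of 6 called by limma (median 0.05), with 1 higher and 2 lower at an unadjusted p under 0.05. Its median was -0.00862 under median centring and -0.076 with dim genes left out, and each of these settings called 1 gene lower. Trend and robust eBayes called 1 lower, array weights 1 higher and 1 lower, and the methods' limits 1 higher.

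Genes of the other proton-pumping complexes and of ATP synthase were also called higher. Of all genes tested, 3.48% were called higher and 6.38% lower. In complex III 2 of 8 rose, UQCRQ by 0.44 (adjusted p = 0.0117) and UQCR10 by 0.39 (adjusted p = 0.0121), with a list median of 0.12 (0.069 under median centring). In complex IV 5 of 10 rose (median 0.27). These included COX7B, which had 7.11 ± 0.11 in controls and 7.83 ± 0.18 after siFAH (SD, n = 3) and rose by 0.72 (adjusted p = 0.00273). COX6C rose by 0.53 (adjusted p = 0.0113), COX7C by 0.41 (adjusted p = 0.0171) and COX6B1 by 0.33 (adjusted p = 0.0253). In ATP synthase 5 of 16 rose and 1 fell (median 0.10, with 0.0433 under median centring and 0.174 under cyclic loess). ATP5ME, a small membrane subunit, rose by 0.66 (adjusted p = 0.00385), ATP5MJ by 0.48 and ATP5MK by 0.47. ATP5F1B, the catalytic beta subunit, fell by 0.46 (adjusted p = 0.0114). Chromosomes of neighboring probe sets were compared for the complex I members only. The ATP5MK set is numbered close to that of COX7B on the X chromosome, whereas ATP5MK lies on chromosome 10. What this set reads is therefore uncertain. Complex IV and ATP synthase each had 2 genes called higher without control replicate 3, siFAH replicate 2 or siFAH replicate 3, and 3 and 2 without control replicate 2. The other assembly factors had 1 called lower in these 4 fits, and complex III had 1 called higher without siFAH replicate 2. Over all genes the same 4 fits called 267 to 289 higher and 390 to 472 lower, against 639 and 1172 with all arrays.

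Of 33 genes that supply cofactors or regulate the pathway, 4 were called (12.1%, against 9.86% of all genes). In iron-sulfur cluster assembly ISCA1, a late-acting carrier protein, rose by 0.27 (adjusted p = 0.0467) and HSPA9, the mitochondrial HSP70, fell by 0.28 (adjusted p = 0.0416), of 12 tested. Both calls were lost without any 1 control array and without siFAH replicate 2 or 3, with highest adjusted p of 0.151 and 0.142. ISCA1 was also not called under median centring (log2 fold change 0.22) or with the mean of probe sets. Its probe set is numbered between those of COX7C and HSPA9 on chromosome 5, whereas ISCA1 lies on chromosome 9. What the ISCA1 set reads is therefore uncertain. In ubiquinone synthesis COQ5, a methyltransferase, fell by 0.24 (adjusted p = 0.0408), of 11 tested, and this call was lost in all 6 fits without 1 array (highest adjusted p 0.114). Among 10 regulators of respiratory genes TFB1M, which methylates mitochondrial ribosomal RNA, fell by 0.48 (adjusted p = 0.00274) and 9 were not called, NRF1 (-0.0088), GABPA (0.07) and YY1 (0.12) among them. These calls come from the same 6 arrays as the complex I calls, and no list was tested against another. The GABPA probe set is numbered between those of TFB1M on chromosome 6 and COA1 on chromosome 7. GABPA lies on chromosome 21, so its reading is uncertain too.

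**Figure D5:**
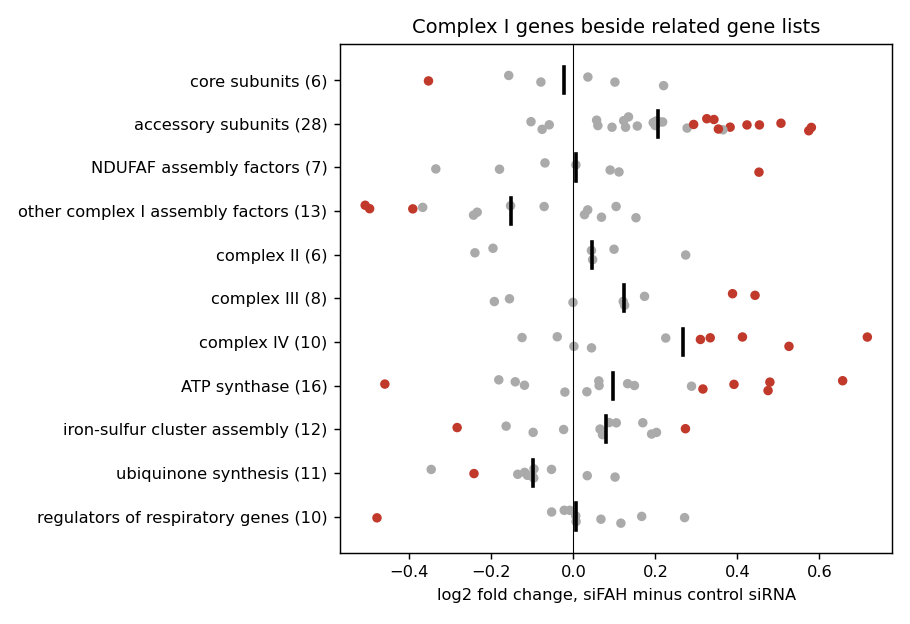
Log2 fold change, siFAH minus control siRNA (x axis), of each gene tested in the complex I roles and in related lists (rows, with the number of genes tested). Red points passed the test, gray points did not, and the black line is the list median, highest in complex IV (0.27) and lowest in the other complex I assembly factors (-0.15).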

How the data were processed

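Total RNA of 6 A375 cultures was read on Affymetrix Human Gene 1.0 ST arrays, and the deposited log2 signals were made by the authors with RMA; no version or genome build is given in the sources used here, and the sources name different RNA and labelling kits. Of 28829 probe sets, 19291 carried 1 symbol, 1735 carried several and 7803 were unnamed here. Symbols were matched by gene ID (19260 matched, 0 changed) and the probe set with the highest mean was kept, which left 18372 genes. No filter on dim genes was applied. Groups followed the labels. siFAH and control were compared in limma 3.58.1 (R 4.3.3), by lmFit followed by eBayes (4 residual and 6.52 prior degrees of freedom), two-sided, with Benjamini-Hochberg adjustment over all genes, called under 0.05. The fit was tested on simulated data. SAM, the study's method, was not run. Summaries used Python 3.11.15, numpy 2.4.6 and pandas 2.3.3, and figures matplotlib 3.10.9. Members and gene lists were chosen with earlier results of these data known. Genes named were FAH, all core subunits, all called members, the 4 highest and 4 lowest accessory subunits and NDUFAF factors, and in each related list the called genes up to 4. GABPA, YY1, NRF1, NDUFV1-DT and the markers were named for their roles after their values were seen, and NDUFS4 for its second probe set. Motifs were chosen after their counts were seen. Precision is limited by 3 arrays a group.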

Additional observations from a re-analysis of the deposited data

How the results depend on the processing

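Of the 41 subunits and factors, 11 were called higher and 1 lower. The count called higher was 5 to 12 when leaving out 1 array at a time. It was 0 under Student's t-test, which the study names in its general statistics, with Benjamini-Hochberg adjustment added here. That t-test called 6 genes higher and 8 lower of all 18372. Other normalizations, filters, variance models and array weights gave 11 to 16. The count called lower was 0 under quantile normalization, cyclic loess and the same t-test. It was 2 under median centring, with dim genes left out, with trend and robust eBayes, with array weights and at the methods' limits. Without 1 array it was 0 to 2. With the replicate number as a block 5 were called higher and 0 lower. Over all 18372 genes 639 were called higher and 1172 lower in the main fit, and 299 and 462 with this block. Without 1 array the counts over all genes were 267 to 653 higher and 390 to 1192 lower. After removal of each group's mean, same-numbered arrays correlated at -0.155, -0.0891 and -0.274. Arrays of unlike number in the 2 groups correlated from -0.0923 to 0.241. With 3 arrays a group, these values cannot show whether any arrays were handled together. The core median (-0.022) was 0.0429 under quantile normalization, -0.0761 under median centring and 0.0658 under cyclic loess, so its sign is not settled. The accessory median (0.206) was 0.277 under quantile normalization and 0.291 under cyclic loess. The NDUFAF median (0.0061) was -0.0481 under median centring, -0.0693 with dim genes left out and -0.0199 to 0.0514 without 1 array. Changes of sign among named genes were all in genes that were not called. NDUFA10 was 0.00259 and NDUFV1 0.0112 under cyclic loess, NDUFAF5 was -0.0258, -0.0481 and -0.0219 under quantile normalization, median centring and cyclic loess, and NDUFS3 was -0.0188 under median centring and -0.00686 with array weights. Without 1 array, NDUFA5 ranged from -0.131 to 0.00532, NDUFAF5 from -0.0275 to 0.0514 and NDUFS3 from -0.0366 to 0.0868. The cause of these shifts was not tested. SAM was not run.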
